A study of Mus musculus with 9 samples.

Results

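H19, Igf2, Dlk1, Meg3, Cdkn1c, Mest, Peg3, Plagl1 and Grb10 are imprinted genes of fetal growth, which are transcribed mainly from 1 parental copy. These 9 genes were taken by symbol from the 24421 gene symbols measured in mouse liver tumors. All 9 symbols were present in every library, and all 9 were among the 14215 genes kept for testing. The genes were chosen by name with their log2 levels in these same tumor groups already known, so their values are given as a description, with no test of their own.

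The study concerns TGF-β signaling and Snail in liver cancer. It holds 3 S7HP+Snail tumors (numbers 13, 14 and 15), 3 S7HP tumors (9, 11 and 12) and 3 LHP tumors (2, 3 and 6), all from the livers of C57BL/6 mice aged 11 weeks. The labels do not spell out the letters H and P, which all 3 group names share. In the column headers S7HP goes with Smad7, a brake on TGF-β receptors, and LHP with a Luc construct. S7HP+Snail carries Snail, a transcriptional repressor of epithelial genes, in addition. The labels state neither how the constructs were delivered nor whether the tumors of a group came from separate animals. Tumors that shared an animal would not be independent. The SE and p values given here treat them as independent and may then be too small.

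Imprinted growth genes carry a parental mark, usually DNA methylation at a control region, that lets only the maternal or the paternal copy be read. H19 and Igf2 are the classical pair: they lie side by side, share enhancers, and are read from the maternal and the paternal copy in turn. In rodent liver most of these genes are active in the fetus and are turned down after birth, and several return in liver tumors. Igf2, Dlk1, Mest, Peg3 and Plagl1 are read from the paternal copy, and H19, Meg3, Cdkn1c and Grb10 from the maternal copy in most mouse tissues.

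Each value is the log2 of 1 plus a quantile-normalized read count from the 3′ end of transcripts, so 1 unit is a doubling and 0 means no count. Quantile normalization gives every library the same distribution of values. The highest value (20.06) was the same in every library, the totals lay between 19910396 and 19911234 normalized counts, and the original depths are not preserved. Between 7750 and 8392 symbols were at 0 per library, and the third lowest value above 0 lay between 1.22 and 2.64. The libraries named for Smad7 had less signal at the Smad7 symbol, at 6.77 to 8.0 in S7HP+Snail and 6.28 to 6.81 in S7HP, against 9.49 to 10.5 in LHP. Snai1, the gene of Snail, was at 7.31 to 8.53, 6.17 to 6.92 and 9.93 to 11.16 in S7HP+Snail, S7HP and LHP. A 3′ tag counts a construct only if the construct carries the 3′ end of the mouse gene, and whether these did is not stated, so the labels are not checked by these values.

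H19 and Igf2 each hold a small RNA gene within their transcript, and the mature sequences are shown because they are part of what these loci encode. Capitals mark the seed, bases 2 to 8. The sequences are from RefSeq (GRCm38.p6), all on the minus strand of chromosome 7.
mmu-miR-675-5p (H19): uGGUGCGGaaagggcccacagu
mmu-miR-675-3p (H19): cUGUAUGCccuaaccgcucagu
mmu-miR-483-5p (Igf2): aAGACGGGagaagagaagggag
mmu-miR-483-3p (Igf2): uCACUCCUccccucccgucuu
No seed is shared among these 4 RNAs. Libraries of polyadenylated 3′ ends are not made to count mature miRNAs. The symbol Mir483 was at 0 in 9 of 9 libraries. Mir675 lies inside H19 and was at 3.38, 3.97 and 1.35 in S7HP+Snail tumors 13, 14 and 15, at 5.18, 0 and 1.83 in S7HP tumors 9, 11 and 12, and at 0 in the 3 LHP tumors. Its reads cannot be told apart from those of the H19 transcript.

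H19, a long noncoding RNA with no protein product, showed the clearest separation of the groups. Its log2 value was 16.30, 16.75 and 15.99 in S7HP+Snail tumors 13, 14 and 15, then 16.62, 14.51 and 15.03 in S7HP tumors 9, 11 and 12, and 9.52, 10.22 and 8.26 in LHP tumors 2, 3 and 6. All tumors of both Smad7 groups lay above all LHP tumors, and the Smad7 groups overlapped. H19 (GRCm38 chromosome 7, 142575529 to 142578143, minus strand) ranked 8th to 18th among all symbols in S7HP+Snail libraries and 9th to 87th in S7HP libraries, against 3034th to 7166th in LHP libraries. It made up 0.327% to 0.554% of all normalized counts in S7HP+Snail and 0.117% to 0.506% in S7HP, against 0.00153% to 0.00598% in LHP. The mean was higher by 7.01 ± 0.59 (SE) on the log2 scale in S7HP+Snail than in LHP, and by 6.05 ± 0.59 in S7HP than in LHP.

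Igf2 encodes insulin-like growth factor 2, the main fetal growth factor of this family. Log2 values of Igf2 were 15.99, 15.71 and 14.70 in S7HP+Snail tumors 13, 14 and 15, then 15.76, 10.79 and 12.28 in S7HP tumors 9, 11 and 12, and 7.32, 8.01 and 5.94 in LHP tumors 2, 3 and 6. No LHP tumor reached the lowest S7HP tumor, and S7HP tumor 9 alone of its group lay within the range of the S7HP+Snail tumors. Igf2 (chromosome 7, 142650766 to 142666816, minus strand) was higher by 8.38 ± 1.07 (SE) in S7HP+Snail than in LHP, and by 5.85 ± 1.07 in S7HP than in LHP. The SD of Igf2 over the S7HP tumors was 2.55, which exceeded the SD of 99.9% of the 9576 kept genes with a mean log2 value of at least 7, whose median SD in S7HP was 0.34.

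Within single tumors the distance between H19 and Igf2 also differed. The log2 value of H19 minus that of Igf2 was 0.31, 1.04 and 1.29 in S7HP+Snail tumors 13, 14 and 15, then 0.86, 3.72 and 2.75 in S7HP tumors 9, 11 and 12, and 2.20, 2.21 and 2.31 in LHP tumors 2, 3 and 6. The LHP tumors were nearly equal (SD 0.06), the S7HP+Snail tumors all lay below them, and S7HP tumors fell on both sides. A read at a 3′ end stands for 1 transcript whatever its length. Quantile normalization, however, sets each value by the rank of the gene in its library. These log2 differences are therefore distances on the shared distribution and not ratios of transcript counts.

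**Figure D1:**
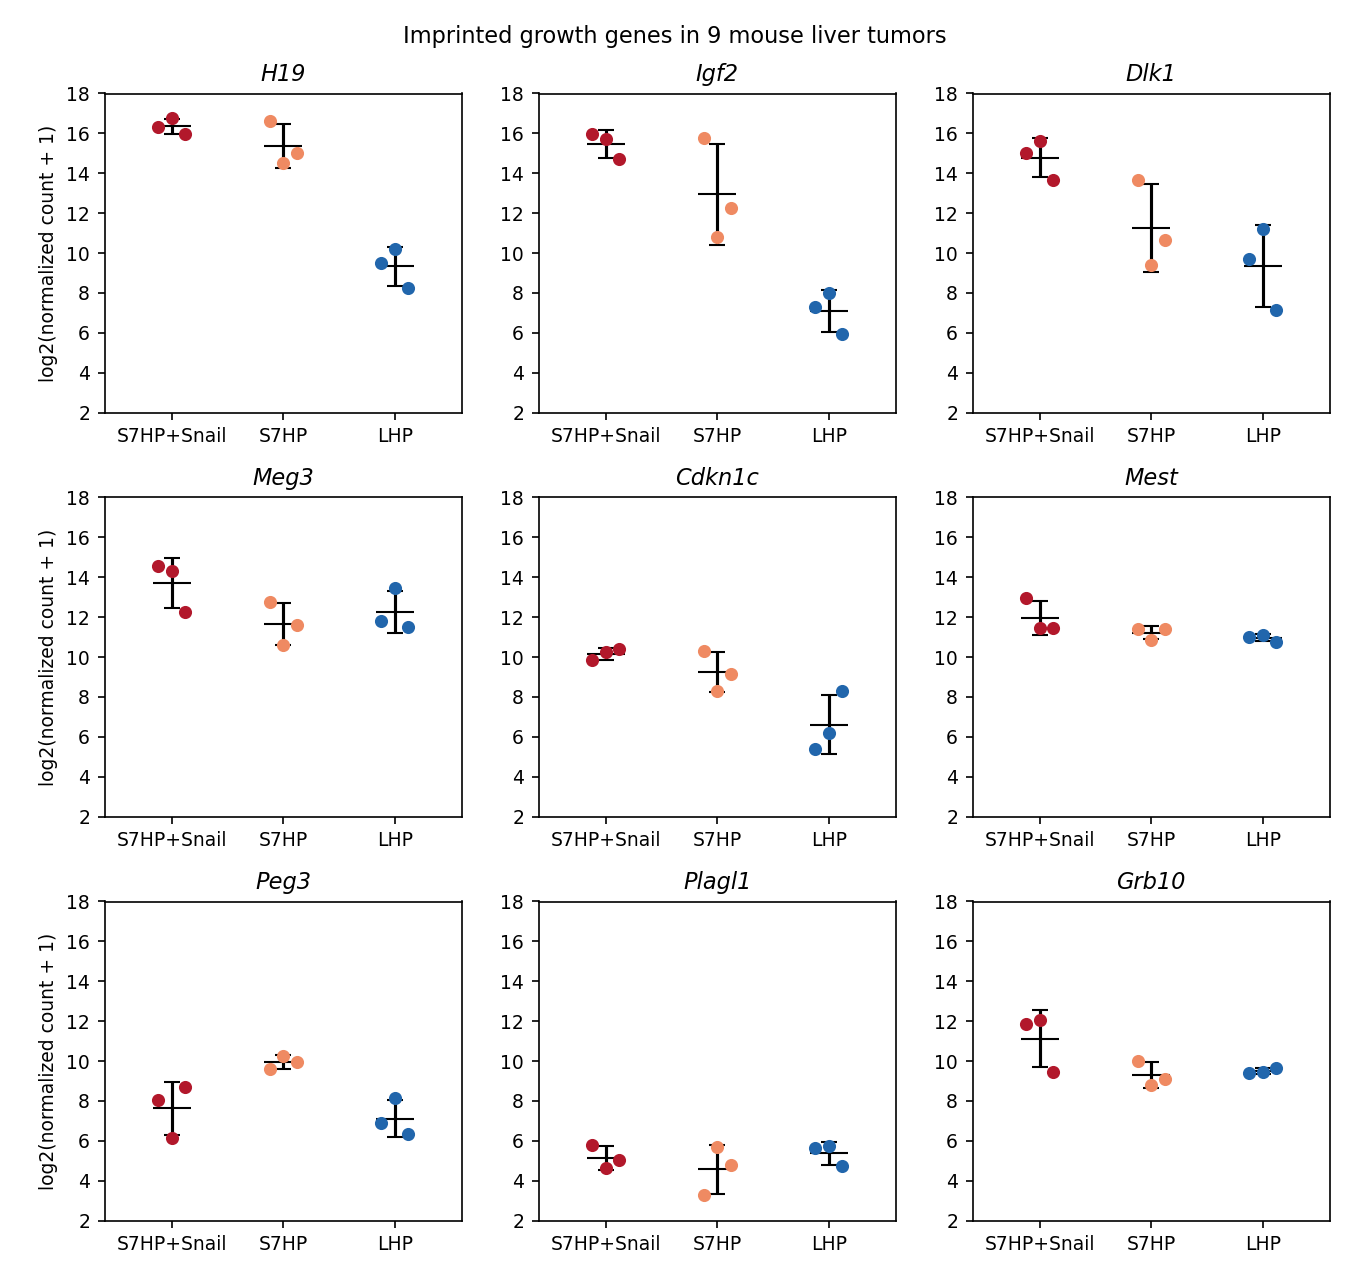
Log2(normalized count + 1) of the 9 imprinted genes by group, with 1 point per tumor and the mean ± SD over 3 tumors as bars. H19 and Igf2 lie higher in all S7HP+Snail and S7HP tumors than in any LHP tumor, Peg3 is highest in S7HP, and Plagl1 is low in all 3 groups.

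Dlk1 encodes a membrane-bound and shed protein of the Notch ligand family that marks hepatoblasts, the fetal precursors of hepatocytes. Dlk1 stood at log2 values of 15.03, 15.60 and 13.68 in S7HP+Snail tumors 13, 14 and 15, then 13.68, 9.38 and 10.67 in S7HP tumors 9, 11 and 12, and 9.70, 11.22 and 7.16 in LHP tumors 2, 3 and 6. S7HP+Snail tumors lay above all LHP tumors, whereas S7HP and LHP tumors overlapped, and S7HP tumor 9 was level with the lowest S7HP+Snail tumor. Dlk1 (chromosome 12, 109452823 to 109463336, plus strand) was higher by 5.41 ± 1.19 (SE) in S7HP+Snail than in LHP. The S7HP mean was higher than the LHP mean by 1.88 ± 1.19, a difference within the spread of the tumors.

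Meg3, the maternally read long noncoding RNA of the same locus, had high levels in all 3 groups. Meg3 was at log2 values of 14.56, 14.34 and 12.26 in S7HP+Snail tumors 13, 14 and 15, then 12.74, 10.60 and 11.63 in S7HP tumors 9, 11 and 12, and 11.82, 13.47 and 11.51 in LHP tumors 2, 3 and 6. The 3 groups overlapped, with means of 13.72 ± 1.27, 11.66 ± 1.07 and 12.27 ± 1.06 in S7HP+Snail, S7HP and LHP (SD, n = 3 each). Meg3 (chromosome 12, 109541001 to 109571726, plus strand) minus Dlk1 was -0.46, -1.26 and -1.42 on the log2 scale in S7HP+Snail tumors, -0.94, 1.23 and 0.96 in S7HP tumors, and 2.12, 2.26 and 4.35 in LHP tumors. Dlk1 exceeded Meg3 in 3 of 3 S7HP+Snail tumors and in S7HP tumor 9, against 0 of 3 LHP tumors.

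**Figure D2:**
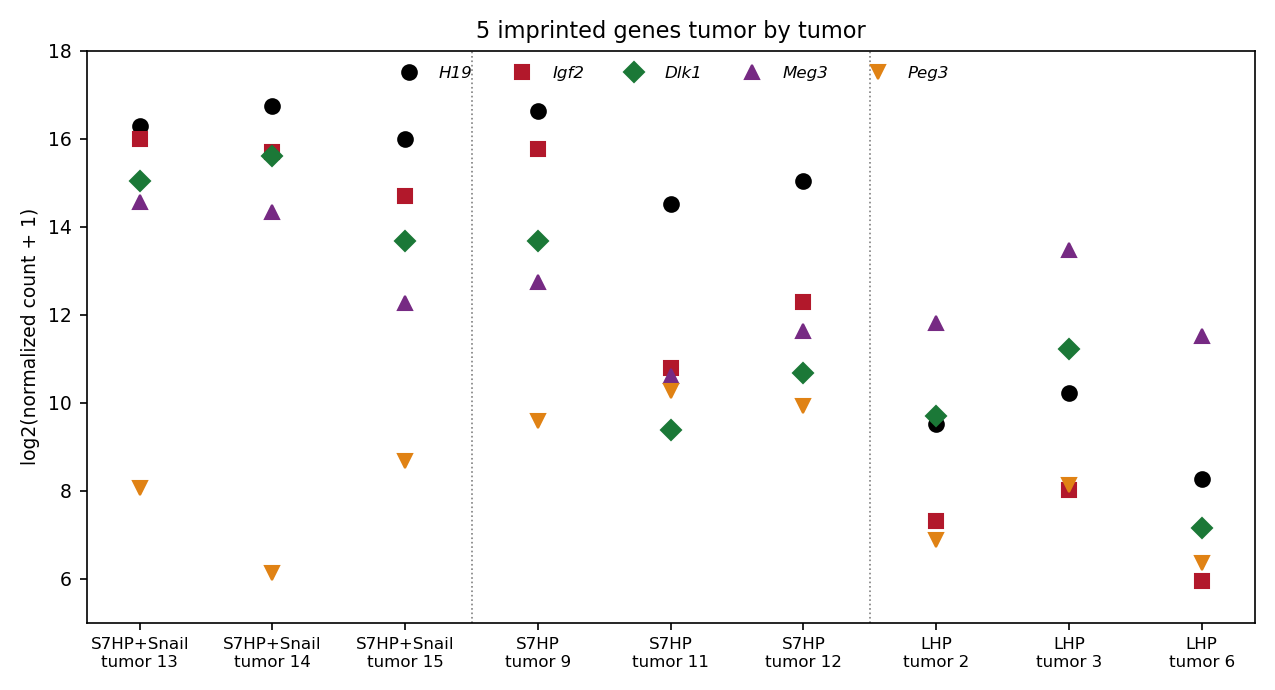
Log2(normalized count + 1) of H19, Igf2, Dlk1, Meg3 and Peg3 in each of the 9 tumors. In S7HP tumor 9, H19 (16.62), Igf2 (15.76) and Dlk1 (13.68) stand above S7HP tumors 11 and 12, while Peg3 (9.58) is the lowest of the 3.

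The promoters of Igf2, Dlk1 and Meg3 are shown because these genes moved between tumors of 1 group, and that of Peg3 because its window holds the consensus bound by the Plagl1 protein. Each window runs from 250 bases before to 50 after an annotated start and is written 5′ to 3′ on the strand of the gene, from RefSeq (GRCm38.p6), which had an entry for 7 of the 9 genes. Capitals mark 3 motifs searched on both strands: GGGGCCCC (the Plagl1 consensus, its own reverse complement), TGCCGC (the core of the imprint-keeping protein Zfp57, GCGGCA on the other strand) and TATAAA (the TATA box, TTTATA on the other strand).
Igf2, chr7:142661222-142661521, minus strand: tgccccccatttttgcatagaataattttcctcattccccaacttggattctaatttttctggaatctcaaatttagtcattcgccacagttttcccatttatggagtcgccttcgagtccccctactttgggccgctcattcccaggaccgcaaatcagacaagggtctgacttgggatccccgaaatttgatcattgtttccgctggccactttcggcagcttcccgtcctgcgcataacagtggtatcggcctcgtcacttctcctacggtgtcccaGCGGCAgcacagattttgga
Igf2, chr7:142657447-142657746, minus strand: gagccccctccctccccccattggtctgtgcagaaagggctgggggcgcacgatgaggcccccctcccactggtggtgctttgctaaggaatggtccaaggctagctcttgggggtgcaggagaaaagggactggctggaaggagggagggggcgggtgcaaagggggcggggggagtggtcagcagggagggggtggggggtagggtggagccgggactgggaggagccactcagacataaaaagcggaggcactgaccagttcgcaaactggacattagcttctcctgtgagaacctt
Dlk1, chr12:109452573-109452872, plus strand: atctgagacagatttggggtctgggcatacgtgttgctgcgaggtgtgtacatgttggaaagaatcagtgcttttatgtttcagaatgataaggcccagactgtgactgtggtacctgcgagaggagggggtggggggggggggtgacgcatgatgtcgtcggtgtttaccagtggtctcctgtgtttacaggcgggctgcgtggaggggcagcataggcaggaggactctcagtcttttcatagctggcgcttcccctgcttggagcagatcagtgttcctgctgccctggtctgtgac
Meg3, chr12:109540746-109541045, plus strand: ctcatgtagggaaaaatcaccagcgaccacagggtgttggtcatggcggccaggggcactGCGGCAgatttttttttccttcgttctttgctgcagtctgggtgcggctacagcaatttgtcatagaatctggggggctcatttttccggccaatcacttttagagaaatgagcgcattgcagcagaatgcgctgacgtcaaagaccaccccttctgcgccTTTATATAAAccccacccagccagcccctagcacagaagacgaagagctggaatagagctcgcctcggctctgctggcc
Peg3, chr7:6730370-6730669, minus strand: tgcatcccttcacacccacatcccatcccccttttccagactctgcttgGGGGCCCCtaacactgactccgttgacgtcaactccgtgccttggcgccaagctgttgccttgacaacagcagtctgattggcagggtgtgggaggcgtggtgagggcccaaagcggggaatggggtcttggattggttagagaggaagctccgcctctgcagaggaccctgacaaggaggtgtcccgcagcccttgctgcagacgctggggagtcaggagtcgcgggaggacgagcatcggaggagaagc
The Peg3 window holds the Plagl1 consensus once, which 1.08% of all 32851 promoter windows hold. The Zfp57 core is present once in the first Igf2 window and once in the Meg3 window, and 11.6% of all windows hold it. The TATA box matches of the Meg3 window lie on both strands and overlap each other, and 13.6% of all windows hold that motif. The windows printed hold 14, 7, 9, 13 and 13 CpG dinucleotides in the order shown, against a median of 7 over all windows. RefSeq gives Igf2 4 windows and Meg3 2; those not printed hold 2 and 24 CpG for Igf2 and 1 for Meg3. A match describes letters in this window and not a bound site.

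Cdkn1c encodes the cyclin-dependent kinase inhibitor p57, which restrains the cell cycle in fetal tissues. Cdkn1c had log2 values of 9.84, 10.25 and 10.40 in S7HP+Snail tumors 13, 14 and 15, then 10.28, 8.30 and 9.17 in S7HP tumors 9, 11 and 12, and 5.39, 6.19 and 8.28 in LHP tumors 2, 3 and 6. All S7HP+Snail tumors lay above the LHP tumors, and the lowest S7HP tumor exceeded the highest LHP tumor by a small margin only. Cdkn1c (chromosome 7, 143458339 to 143461050, minus strand) was higher by 3.54 ± 0.70 (SE) in S7HP+Snail than in LHP, and by 2.63 ± 0.70 in S7HP than in LHP.

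Peg3 encodes a zinc finger protein and was the 1 gene of the 9 whose mean was highest in S7HP. Peg3 had log2 values of 8.07, 6.14 and 8.68 in S7HP+Snail tumors 13, 14 and 15, then 9.58, 10.27 and 9.93 in S7HP tumors 9, 11 and 12, and 6.88, 8.13 and 6.36 in LHP tumors 2, 3 and 6. The S7HP tumors lay above all other tumors, while S7HP+Snail and LHP overlapped. Peg3 (chromosome 7, 6703892 to 6730431, minus strand) was higher by 2.81 ± 0.64 (SE) in S7HP than in LHP, and the S7HP+Snail mean differed from the S7HP mean by -2.30 ± 0.64. Usp29, which starts beside Peg3 on the other strand and is also paternally read, had its highest mean in S7HP too, at 6.22, 2.26 and 7.21 in S7HP+Snail, 6.46, 8.27 and 7.43 in S7HP and 5.18, 6.40 and 5.25 in LHP. It was called in no comparison.

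Grb10 encodes an adaptor that binds the insulin and insulin-like growth factor receptors and dampens their signal. Grb10 reached log2 values of 11.84, 12.05 and 9.46 in S7HP+Snail tumors 13, 14 and 15, then 10, 8.78 and 9.08 in S7HP tumors 9, 11 and 12, and 9.42, 9.44 and 9.67 in LHP tumors 2, 3 and 6. S7HP+Snail tumors 13 and 14 stood above all other tumors, and tumor 15 lay among them. Grb10 (chromosome 11, 11930508 to 12038683, minus strand) had an S7HP+Snail mean higher than that of LHP by 1.61 ± 0.61 (SE). Without S7HP+Snail tumor 15 that difference was 2.43 ± 0.35.

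Mest, which encodes a protein related to hydrolases, was at 12.95, 11.48 and 11.47 in S7HP+Snail tumors 13, 14 and 15, then 11.40, 10.85 and 11.42 in S7HP tumors 9, 11 and 12, and 11.00, 11.13 and 10.78 in LHP tumors 2, 3 and 6. Its SD was 0.33 in S7HP and 0.18 in LHP. In S7HP+Snail, where tumor 13 stood apart, the SD was 0.85. S7HP+Snail lay above both other groups without overlap, but the nearest tumors were close, at 11.47 in S7HP+Snail and 11.42 in S7HP. The last 912 bases of Mest (chromosome 6, 30723547 to 30748465, plus strand) overlap the 3′ end of Copg2 on the opposite strand. Copg2 had values of 11.26, 9.86 and 9.98 in S7HP+Snail, 9.91, 9.37 and 9.94 in S7HP and 9.49, 9.56 and 9.24 in LHP. Whether reads were counted by strand is not given in the sources used here, so reads of Mest and Copg2 may not have been told apart.

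Plagl1 encodes a zinc finger transcription factor that in mouse acts on other imprinted genes, Igf2 among them. It was the lowest of the 9 genes in all tumors but LHP tumor 2, at 5.79, 4.63 and 5.04 in S7HP+Snail tumors 13, 14 and 15, then 3.27, 5.67 and 4.78 in S7HP tumors 9, 11 and 12, and 5.64, 5.73 and 4.72 in LHP tumors 2, 3 and 6. The 3 groups overlapped. The lowest value of Plagl1 (chromosome 10, 13060504 to 13131694, plus strand) was in S7HP tumor 9, the S7HP tumor with the highest H19, Igf2 and Dlk1.

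Within S7HP and within LHP, a tumor that was high for one of these genes was often high for others. How often this holds over all genes was not counted. In S7HP, tumor 9 had the highest value for 6 of the 9 genes (H19, Igf2, Dlk1, Meg3, Cdkn1c and Grb10) and tumor 11 the lowest for 7. Tumor 9 was the lowest for Peg3 and Plagl1. In LHP, tumor 3 had the highest value for 7 genes and tumor 6 the lowest for the same 7 (H19, Igf2, Dlk1, Meg3, Mest, Peg3 and Plagl1). In S7HP+Snail, tumor 15 had the lowest value for 6 genes, while the highest values were split 4, 3 and 2 over tumors 13, 14 and 15. Summed over the 9 genes, normalized counts made up 1.08%, 1.22% and 0.578% of the libraries of S7HP+Snail tumors 13, 14 and 15, then 0.914%, 0.157% and 0.241% of S7HP tumors 9, 11 and 12, and 0.0416%, 0.0931% and 0.0322% of LHP tumors 2, 3 and 6.

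Read over the whole table, 4 of the 9 genes were called higher in S7HP than in LHP and 0 lower (H19, Igf2, Peg3 and Cdkn1c). The call is a limma p, adjusted over all 14215 genes by the Benjamini-Hochberg method, under 0.05. By that rule 19% of all genes were called in this comparison, 9.47% higher and 9.54% lower. The same 4 genes were those whose groups did not overlap, where 20.9% of all genes separated upward and 21.3% downward. The median log2 difference was 1.88 over the 9 genes, against 0.02 over all genes tested. In S7HP+Snail against LHP, 4 of 9 were called higher and 0 lower (H19, Igf2, Cdkn1c and Dlk1), where 7.22% of all genes were called, 3.35% higher and 3.87% lower. The median difference was 1.61 over the 9 genes, against -0.001 over all genes. Groups did not overlap for these 4 and for Mest, all higher in S7HP+Snail, where 14.7% of all genes separated upward and 15.8% downward. Both comparisons share the LHP tumors, and since these differences chose the genes, nothing is read from the counts. In S7HP, Cdkn1c was not called when LHP tumor 2 or 3 or S7HP tumor 9 or 12 was left out, nor Peg3 when LHP tumor 2 or 6 or S7HP tumor 11 was. In S7HP+Snail, Cdkn1c was not called when LHP tumor 2 or 3 was left out, nor Dlk1 when LHP tumor 2 or 6 or S7HP+Snail tumor 13 or 14 was. Without LHP tumor 2 the count of called genes was 2 in each of these comparisons. H19 and Igf2 were called under every alternative run, with differences between 5.43 and 6.50 for H19 and between 4.44 and 6.93 for Igf2 in S7HP against LHP.

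Between S7HP+Snail and S7HP, 0 of the 9 genes were called by limma (5 had an unadjusted p under 0.05), where 2.3% of all genes were called, 1.01% higher and 1.29% lower. The means of 8 genes were higher in S7HP+Snail, from 0.58 ± 0.67 (SE) for Plagl1 to 3.53 ± 1.19 for Dlk1, and Peg3 was lower by the amount given above. Igf2 differed by 2.52 ± 1.07 and Meg3 by 2.06 ± 0.75. Groups did not overlap for Mest, higher in S7HP+Snail, and for Peg3, lower in S7HP+Snail, while 9.53% and 11.0% of all genes separated in those directions. Leaving out S7HP tumor 9 brought Igf2 past the threshold with a difference of 3.93 ± 0.68, and leaving out S7HP+Snail tumor 15 did so for Grb10 with 2.66 ± 0.35.

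**Figure D3:**
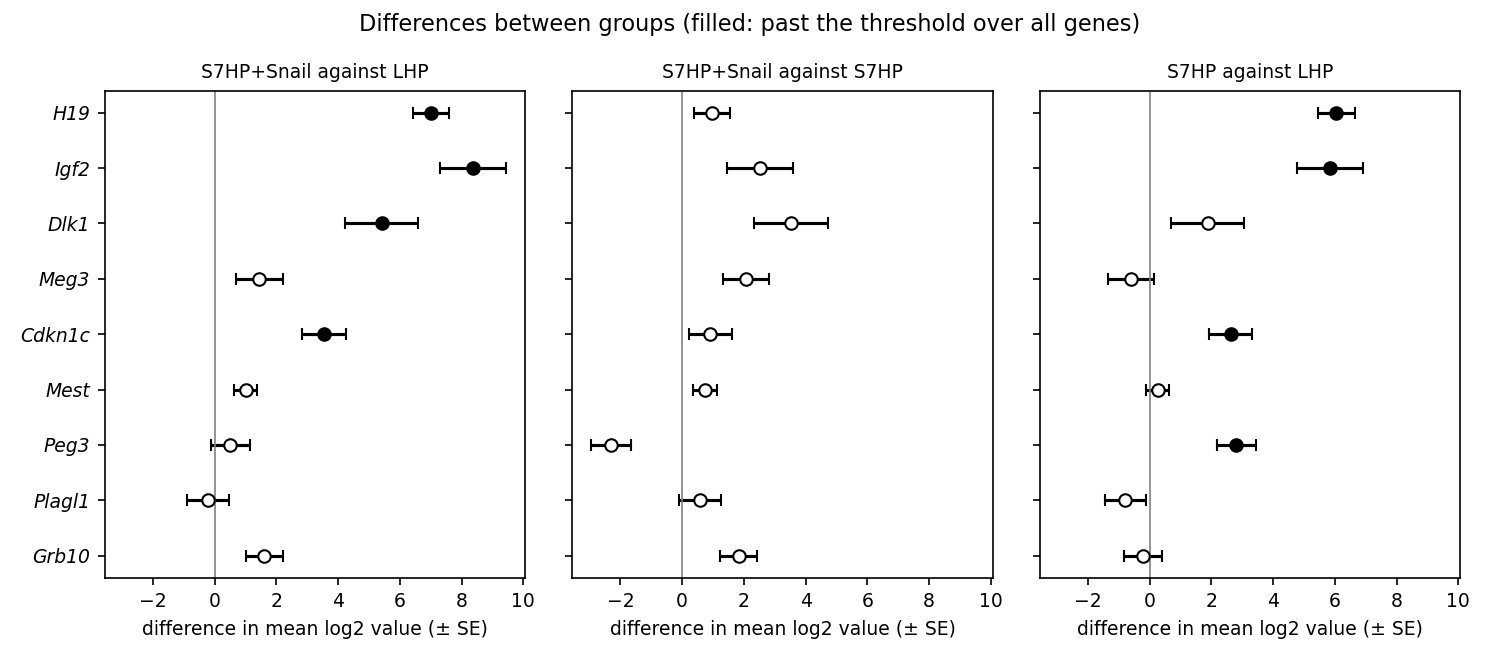
Difference in mean log2 value with its SE for each of the 9 genes in the 3 comparisons, with filled points for genes called over all 14215 genes. H19 and Igf2 lie at 5.85 or more in both comparisons with LHP, and no point is filled in S7HP+Snail against S7HP.

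The 53 other imprinted genes listed from general knowledge did not share one direction. Of these, 42 were kept for testing, and in S7HP against LHP 7 rose, 5 fell and 30 did not pass, or 28.6% called beside 19% over all genes. Their median log2 difference was -0.15, against 0.02 over all genes. Among those called, Ddc, an amino acid decarboxylase, rose by 3.88 ± 0.67 (SE; limma adjusted p = 0.00564), and Slc22a18, a membrane transporter, rose by 1.81 ± 0.36 (adjusted p = 0.00907). Blcap fell by 1.82 ± 0.27 (limma adjusted p = 0.00281), and Gnas, the stimulatory G protein subunit, fell by 1.18 ± 0.22 (adjusted p = 0.00712). These 4 calls held in 15 of 15 alternatives, but the count of 12 ranged from 4 to 12 when 1 library was left out, at 4 without LHP tumor 6, 6 without S7HP tumor 9 or 11 and 7 without LHP tumor 3.

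In S7HP+Snail against LHP, 4 of the 42 other imprinted genes rose, 1 fell and 37 did not pass, or 11.9% called where 7.22% of all genes were called. Blcap fell by 1.66 ± 0.27 (SE; limma adjusted p = 0.00889), at 10.08, 9.64 and 9.58 in S7HP+Snail and 9.56, 9.31 and 9.96 in S7HP, against 10.99, 11.68 and 11.61 in LHP. The rises were Zrsr1, which lies within Commd1 on the other strand, at 1.19 ± 0.27 (adjusted p = 0.0328), Ddc at 2.92 ± 0.67 (adjusted p = 0.033), Igf2r at 1.21 ± 0.29 (adjusted p = 0.0365) and Mirg at 2.52 ± 0.60 (adjusted p = 0.038). Each of those 4 calls was lost without LHP tumor 2, 3 or 6, among other libraries. Against S7HP, 1 of 42 rose in S7HP+Snail and 0 fell, where 2.3% of all genes were called: Sgce, a sarcoglycan, by 1.54 ± 0.29 (limma adjusted p = 0.0279). Sgce was no longer called when LHP tumor 6, any tumor of S7HP, or tumor 13 or 14 of S7HP+Snail was left out.

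Genes beside the 9 were counted in the same way. Of 123 other symbols that start within 250 kb of one of them, 30 were kept, and in S7HP against LHP 5 rose, 1 fell and 24 did not pass, or 20% called beside 19% of all genes. Igf2os, an antisense RNA that overlaps Igf2 over 7124 bases, rose by 5.73 ± 0.99 (SE) in S7HP and by 7.0 ± 0.99 in S7HP+Snail against LHP (limma adjusted p = 0.00545 and 0.00507). Its log2 value was 8.57, 8.10 and 7.51 in S7HP+Snail and 8.86, 5.58 and 5.90 in S7HP, against 0, 2.87 and 0.29 in LHP, with S7HP tumor 9 again the highest of its group. Without strand its reads cannot be told apart from those of Igf2. On the H19 side, the mitochondrial ribosomal protein gene Mrpl23, singled out with its value known, differed by 0.24 ± 0.26 in S7HP against LHP and was not called. Farther out on that side, Lsp1 was the 1 neighbour that fell in S7HP. It was at 9.70, 9.98 and 8.57 in S7HP+Snail and 8.82, 8.72 and 9.90 in S7HP, against 10.14, 10.61 and 10.99 in LHP. That call held in 6 of 15 alternatives.

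Near Cdkn1c, Slc22a18 and the placental growth regulator Phlda2, both maternally read in mouse, rose in S7HP with it. Phlda2 was at 8.38, 5.44 and 9.5 in S7HP+Snail and 7.86, 8.64 and 8.59 in S7HP, against 6.30, 3.98 and 4.50 in LHP, a rise of 3.44 ± 0.95 (SE) in S7HP (limma adjusted p = 0.033). Leaving out LHP tumor 3 or 6, or any S7HP tumor, ended that call. Downstream of Meg3, the noncoding RNAs Rian and Mirg had values of 11.36, 12.06 and 10.33 and of 10.19, 10.57 and 9.75 in S7HP+Snail. In S7HP they were at 10.82, 8.63 and 9.59 and at 9.46, 7.01 and 8.70, with tumor 9 highest and tumor 11 lowest in both, as for Dlk1 and Meg3. In LHP they were at 8.91, 10.35 and 8.46 and at 7.25, 8.56 and 7.12, with tumor 3 highest. Of 65 miRNA symbols near the 9 genes, 57 were at 0 in every library and 0 were kept. In S7HP+Snail against LHP, 3 of 30 neighbours rose and 0 fell (Igf2os, Ddc and Mirg), or 10% called beside 7.22% of all genes. By limma 0 of 30 were called between S7HP+Snail and S7HP (7 had an unadjusted p under 0.05), beside 2.3% of all genes. Ddc and Mirg here, and Ddc, Slc22a18, Phlda2 and Zim1 in S7HP, were also counted among the other imprinted genes.

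**Figure D4:**
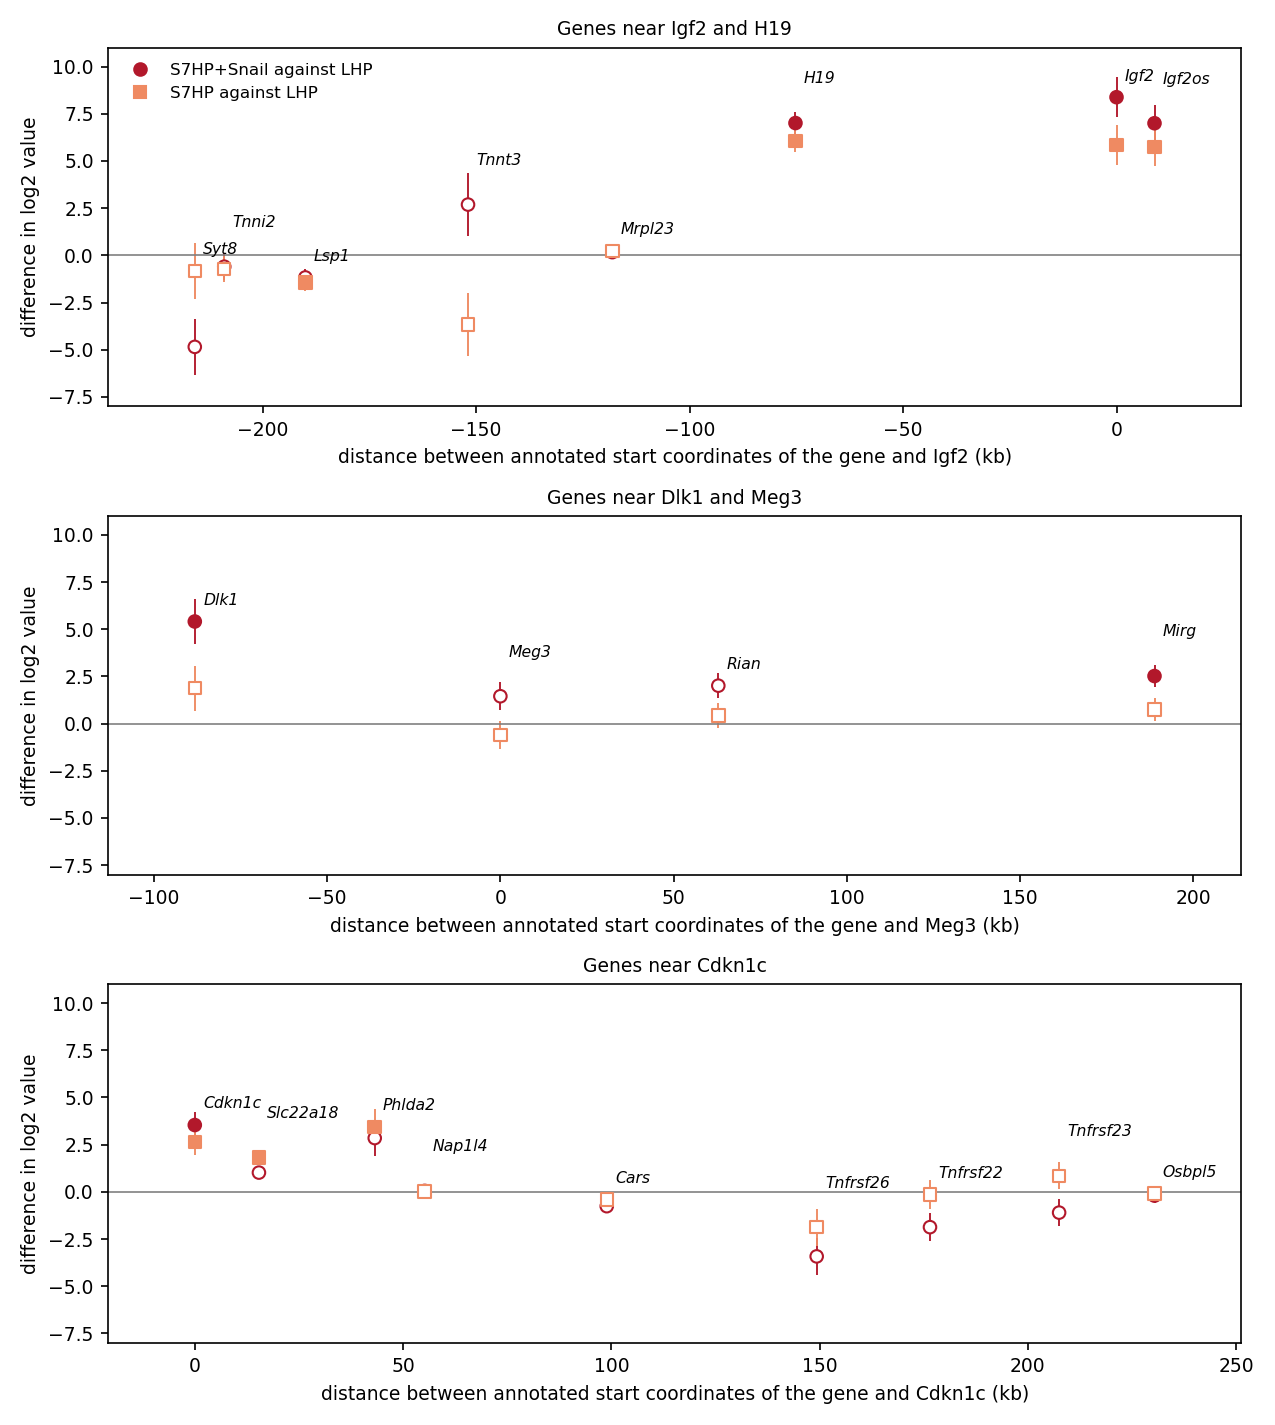
Difference in mean log2 value with its SE for kept genes near Igf2 and H19, near Dlk1 and Meg3, and near Cdkn1c, by distance between annotated start coordinates in kb, in S7HP+Snail (circles) and S7HP (squares) against LHP, with filled points for called genes. Igf2, H19 and Igf2os stand at 5.73 or more in both comparisons, while Mrpl23 beside H19 lies near 0 and Lsp1 is called lower in S7HP.

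Relatives of the 9 genes that are not imprinted were counted beside them. Of 8 relatives, all kept, 3 rose and 0 fell in S7HP against LHP, where 19% of all genes were called: Grb7, an adaptor related to Grb10, by 3.38 ± 0.36 (SE; limma adjusted p = 0.000691), Dlk2 by 1.40 ± 0.39 (adjusted p = 0.0329) and the kinase inhibitor gene Cdkn1b by 1.0 ± 0.31 (adjusted p = 0.0476). Grb7 was lower in S7HP+Snail than in S7HP by 2.04 ± 0.36 (log2 difference -2.04, limma adjusted p = 0.0226), whereas the Grb10 mean was higher in S7HP+Snail by 1.83 ± 0.61 without a call. Cdkn1b also rose in S7HP+Snail against LHP, by 1.30 ± 0.31 (adjusted p = 0.0358). Not called were Igf1, the postnatal growth factor of the liver, at -1.06 ± 0.41 in S7HP against LHP, Cdkn1a at -0.35 ± 0.47, Grb14 at -0.47 ± 0.62, Plag1 at -2.42 ± 1.11 and Plagl2 at -0.32 ± 0.31. Dlk2 was not called when LHP tumor 2 or 6 or S7HP tumor 9 or 11 was left out, nor Cdkn1b in S7HP without any 1 LHP or S7HP tumor, Cdkn1b in S7HP+Snail without any 1 LHP tumor and some others, or Grb7 between S7HP+Snail and S7HP without any S7HP tumor.

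The receptors that read Igf2 moved apart. Igf1r, the signaling receptor, was at 8.85, 7.55 and 8.0 in S7HP+Snail and 5.73, 3.74 and 6.20 in S7HP, against 9.38, 9.67 and 9.06 in LHP, and it fell by 4.15 ± 0.60 (SE) in S7HP against LHP (limma adjusted p = 0.00247). Igf2r, which takes up Igf2 for breakdown and is itself imprinted, was at 11.12, 10.47 and 10.57 in S7HP+Snail and 10.82, 10.37 and 10.54 in S7HP, against 9.03, 9.95 and 9.56 in LHP, and rose by 1.06 ± 0.29 in S7HP (adjusted p = 0.0302). Igf2r was not called in S7HP when LHP tumor 2 or 6 or any S7HP tumor was left out, while the call of Igf1r held in 15 of 15 alternatives. Of 20 genes of the insulin-like growth factor axis, 3 rose, 4 fell and 13 did not pass in S7HP against LHP, or 35% called beside 19% of all genes, with a median of 0.02. The protease gene Htra1 fell by 3.60 ± 0.40 (limma adjusted p = 0.000755). The carriers of the growth factors Igfals and Igfbp1 rose by 2.24 ± 0.59 and 2.96 ± 0.78 (adjusted p = 0.0275 and 0.0286). The count of 7 was 2 without LHP tumor 2, 3 without LHP tumor 3 or 6, and 4 without S7HP tumor 9 or 11. In S7HP+Snail against LHP 3 rose (Igfbp5 by 2.6 ± 0.54, Igfbp6 by 1.94 ± 0.43 and Igf2r) and 1 fell (Htra1 by 2.68 ± 0.40; limma adjusted p = 0.0242, 0.0302, 0.0365 and 0.00626), or 20% called beside 7.22% of all genes. Htra1 was the 1 of these 4 still called when any LHP tumor, or S7HP+Snail tumor 13 or 15, was left out. Against S7HP 2 rose in S7HP+Snail (Igfbp5 by 4.54 ± 0.54 and Igf1r by 2.91 ± 0.60; limma adjusted p = 0.00517 and 0.0409) and 0 fell. That call of Igf1r held in 4 of 15 alternatives and was lost without any 1 LHP or S7HP tumor, whereas that of Igfbp5 held in all 15.

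Genes that keep imprints or methylate DNA were listed as well, 19 in all, of which 17 were kept. In S7HP against LHP 1 rose and 1 fell, or 11.8% called beside 19% of all genes. By limma 0 were called in S7HP+Snail against LHP and 0 against S7HP (3 and 4 had an unadjusted p under 0.05), beside 7.22% and 2.3% of all genes. Zfp57, which holds methylation at imprinted control regions, rose by 2.25 ± 0.51 (SE; limma adjusted p = 0.0145) in S7HP, at 7.59, 6.00 and 7.38 in S7HP+Snail and 7.97, 7.42 and 8.23 in S7HP, against 6.22, 5.77 and 4.89 in LHP. The methylcytosine oxidase Tet3 fell by 1.05 ± 0.27 (adjusted p = 0.0234). Leaving out LHP tumor 6 ended the call of Zfp57, and leaving out any LHP tumor, or S7HP tumor 11 or 12, ended that of Tet3.

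Zhx2 and Zbtb20 are repressors that in mouse turn down fetal liver genes after birth, H19, Afp and Gpc3 among the targets of Zhx2. Zhx2 was at 5.90, 5.84 and 5.82 in S7HP+Snail and 6.80, 5.47 and 5.99 in S7HP, against 6.42, 5.36 and 6.24 in LHP, and was called in no comparison. Zbtb20 was at 8.74, 11.23 and 9.23 in S7HP+Snail and 10.02, 9.51 and 9.60 in S7HP, against 8.15, 8.60 and 8.52 in LHP, also without a call. Unlike Zhx2, it was higher in every tumor of both Smad7 groups than in any LHP tumor. Of all genes, 20.9% separated upward in S7HP and 14.7% in S7HP+Snail. By limma, 4 of the 5 genes of this list had an unadjusted p under 0.05 in each comparison with LHP. In each, 3 of the 5 were called higher, where 9.47% of all genes were in S7HP and 3.35% in S7HP+Snail. The targets Afp, Gpc3 and Lpl were called higher in both Smad7 groups than in LHP, with Gpc3, a growth-limiting glypican, at 11.46, 11.45 and 9.38 in S7HP+Snail and 10.80, 8.13 and 8.92 in S7HP, against 5.75, 6.30 and 5.52 in LHP. Gpc3 rose by 4.90 ± 0.72 (SE) in S7HP+Snail and by 3.42 ± 0.72 in S7HP (limma adjusted p = 0.00632 and 0.0115), Lpl, lipoprotein lipase, by 3.25 ± 0.45 and 3.26 ± 0.45 (adjusted p = 0.00501 and 0.00196), and Afp, alpha-fetoprotein, by 5.38 ± 0.96 and 7.49 ± 0.96 (adjusted p = 0.0138 and 0.00147). The call of Afp in S7HP+Snail was lost without LHP tumor 3.

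Likeness of pattern was measured as the mean absolute difference between log2 values centred on their mean over the 9 tumors, among 9298 symbols with a mean of at least 7, predicted Gm and Rik symbols left out. The nearest to H19 were Calml4 (0.843), Igf2 (0.870) and Abca8a (0.939), and the nearest to Igf2 was H19. Nearest to Dlk1 were Cpm (0.757), Gpc3 (1.135) and Sult1d1 (1.215). Meg3 lay nearest to Pmp22 (0.327) and then to Grb10 (0.441), which also were the nearest pair among the 9 genes. Cdkn1c lay nearest to Adra1b (0.418), Peg3 to Stom (0.335), Grb10 to Dlc1 (0.288) and Plagl1 to Ptges3l (0.288). Mest lay at 0.055 from Copg2, the gene whose 3′ end it overlaps, against 0.180 from the next gene, Micu2. The 9 points share their group structure, so these values describe these tumors only.

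Marker lists of liver cell types were summed per tumor. In bulk tumors fewer cells of a type and less RNA per cell cannot be told apart. Hepatocyte markers were above 0 in every library for 12 of 12 genes. Their summed level was 159581 to 248172 normalized counts in S7HP+Snail and 295247 to 571126 in S7HP, against 79662 to 118950 in LHP. Trf was the highest of the 12 in every tumor but S7HP+Snail tumor 14, where Alb was, so the sum mostly follows these genes. Trf was at 16.13 to 17.32 in S7HP+Snail and 17.6 to 18.29 in S7HP, against 15.67 to 16.13 in LHP. Of the 12 hepatocyte markers, 6 rose in S7HP and 2 in S7HP+Snail against LHP, and 0 fell. Of all genes, 9.47% and 3.35% were called higher in these comparisons. The 2 in S7HP+Snail became 0 without LHP tumor 2 or 6 and 1 without LHP tumor 3, and 4 without S7HP tumor 9. The sum of 8 hepatoblast markers, Dlk1 among them, was 17767 to 96541 in S7HP+Snail and 20472 to 98252 in S7HP, against 3336 to 5725 in LHP, and S7HP tumor 9 was the highest of its group. Most of that sum was Afp and Dlk1 in both Smad7 groups, and without them the other 6 markers summed to 2600 to 13000 in S7HP+Snail and 1749 to 3352 in S7HP, against 2971 to 3244 in LHP. Lin28b, which was at 0 in some libraries, was at 3.38, 0 and 0 in S7HP+Snail and 1.0, 6.48 and 3.62 in S7HP, against 7.24, 5.09 and 4.72 in LHP. Igf2bp1 was at 10.34, 8.13 and 9.85 in S7HP+Snail and 4.10, 8.60 and 10.5 in S7HP, against 11.12, 11.24 and 11.14 in LHP. Neither was called. Of the 8 (the cholangiocyte list shares genes with this one, Epcam among them), 3 rose in each Smad7 group against LHP and 0 fell. That is 37.5% called in each, beside 19% of all genes in S7HP and 7.22% in S7HP+Snail.

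Stellate cell and fibroblast markers were lower in sum in both Smad7 groups. The sum of 12 was 15338 to 22965 in S7HP+Snail and 7385 to 11842 in S7HP, against 40994 to 54160 in LHP. By call, 3 and 5 of 12 were lower than in LHP and 0 higher, where 3.87% and 9.54% of all genes were called lower. The 3 in S7HP+Snail became 1 when LHP tumor 3 or 6 or S7HP+Snail tumor 14 was left out, and 5 when S7HP+Snail tumor 13 was. Col1a1 and Col3a1 had the highest values of the list in each LHP tumor, at 13.66 to 13.75 and 13.85 to 14.12. Reln went the other way in S7HP, at 8.48 to 10.17 against 7.03 to 7.61 in LHP. Pdgfra did so in S7HP+Snail, at 8.73 to 11.17 against 7.19 to 8.10 in LHP. Neither was called. Against LHP, groups did not overlap for 7 markers lower and 1 higher in S7HP, and for 6 lower and 1 higher in S7HP+Snail. Of all genes, 21.3% separated downward and 20.9% upward in S7HP, and 15.8% and 14.7% in S7HP+Snail. The sum of 12 endothelial markers was 5314 to 7873, 4108 to 7466 and 5806 to 8264 in S7HP+Snail, S7HP and LHP, and that of 12 macrophage markers was 7175 to 13418, 5104 to 8288 and 9223 to 14805. All genes of these 3 lists were above 0 in every library. The sum of 7 cholangiocyte markers, all above 0, was 27058 to 332668, 52263 to 144801 and 95904 to 184841. That of 7 erythroid markers was 9086 to 61553, 7897 to 46739 and 4046 to 14965, with Klf1 and Slc4a1 among those at 0 in some libraries. Of the endothelial markers 2 of 12 fell in S7HP and 0 were called by limma in S7HP+Snail against LHP (1 had an unadjusted p under 0.05), and for the macrophage markers these counts were also 2, 0 and 1. In S7HP that is 16.7% called for each list, below the 19% of all genes. In S7HP+Snail 7.22% of all genes were called. Without any 1 LHP tumor, 1 endothelial and 1 macrophage marker were called in S7HP. Against S7HP, 1 endothelial marker, Plvap, rose in S7HP+Snail, where 2.3% of all genes were called. Plvap was not called without any 1 LHP or S7HP tumor. Cholangiocyte markers had 1 of 7 higher and 1 lower in S7HP, and 1 of 6 kept erythroid markers rose in each Smad7 group against LHP, but 0 did without LHP tumor 2 or 6 in either group, nor without tumor 9 in S7HP, nor in S7HP+Snail without LHP tumor 3, S7HP tumor 11 or 12, or its own tumor 14 or 15. Both cholangiocyte calls were lost without LHP tumor 3. They make 28.6% of that list, beside 19% of all genes called in S7HP. The erythroid call makes 16.7% in each Smad7 group, beside 19% of all genes in S7HP and 7.22% in S7HP+Snail. Spp1 was the highest of the 7 cholangiocyte markers in every tumor, at log2 values of 14.54 to 18.29, so their sum mostly follows that gene. In S7HP, 4 of the 7 lay above all LHP tumors and 1 below, where 20.9% and 21.3% of all genes did. Krt7, 1 of those above, was at 9.83 to 11.22 against 4.67 to 9.46 in LHP. The summed ranges of the endothelial, cholangiocyte and erythroid lists overlapped among the 3 groups. The part of cell composition in the values of the imprinted genes was not tested.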

How the data were processed

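RNA of 9 tumors was taken with Trizol and made into QuantSeq 3′ libraries from 500 ng of total RNA, per the labels' protocols. Bowtie2, edgeR and build mm10 are named in the submitters' processing notes without roles. For the counter and the gene annotation, the sources used here name none. The deposited values are on a log2 scale. No header states the normalization; from the values they are quantile-normalized log2(count + 1), since the files share their maximum, and below 1000 normalized counts 9 times the unlogged value was whole in 100% of values (tolerance 0.001).

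The fit took genes that reached a log2 value of 4 in 3 or more libraries, over all 9 libraries together, in limma 3.58.1 (R 4.3.3) with an intensity trend and robust variances (6 residual degrees of freedom), in place of a count model, which these values do not allow. Tests were two-sided, with Benjamini-Hochberg adjustment over 14215 genes; SE is limma's and SD is over 3 tumors. The fit was tested on simulated data with 200 of 14215 genes changed between S7HP and LHP. It recovered 10%, 54%, 82% and 96% of changes of 1, 2, 3 and 5 log2 units, with 6 false calls. A gene that was not called may therefore still differ. Coordinates are GENCODE M21 on GRCm38, with 95.6% of symbols matched. Named are the 9 genes, up to 4 called genes per list with the smallest adjusted p, all genes of lists of 8 or fewer, and the nearest genes by pattern; marker lists, which the rule also covers, are given as sums and counts instead. The genes and lists were chosen with earlier results of these data known. Mirg, Rian, Usp29, Copg2, Mrpl23 and Lsp1 are given for their position, Igf2r beside Igf1r, and Reln and Pdgfra because they ran against their list. Figures used matplotlib 3.10.9. Some single marker genes are not reported here.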

Additional observations from a re-analysis of the deposited data

How the results depend on the processing

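No paired analysis was possible because the tumor numbers differ between the groups. Alternatives were another pseudocount (8), no filter, a filter at a log2 value of 6, trimmed mean scaling, no trend or robust variances, only the 2 groups compared, and each library left out. Of the differences of the 9 genes recomputed, 382 kept their direction and side of the threshold, 13 lost and 3 gained a call, and 4 reversed, none of them called. With 1 library left out, Peg3 in S7HP+Snail against LHP ranged from -0.02 (without S7HP+Snail tumor 15) to 1.25, and Plagl1 there from -0.53 to 0.05 (without S7HP+Snail tumor 14). Plagl1 in S7HP+Snail against S7HP ranged from -0.07 (without S7HP tumor 9) to 1.13, and Grb10 in S7HP against LHP from -0.58 to 0.03 (without S7HP tumor 11).

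With 1 library left out, called members numbered 2 to 4 in S7HP against LHP, 2 to 5 in S7HP+Snail against LHP and 0 to 1 in S7HP+Snail against S7HP. Other imprinted genes called numbered 4 to 12, 1 to 5 and 0 to 1 in that order, and neighbours 3 to 8, 1 to 4 and 0 to 3. With only the 2 groups compared, 2 other imprinted genes were called in S7HP+Snail against LHP and 0 against S7HP, where 1 neighbour was called. Without trend or robust variances, 2 other imprinted genes and 1 neighbour were called in S7HP+Snail against LHP. Over all genes, 2702, 1026 and 327 were called, against 1465 to 3163, 293 to 1049 and 63 to 451 with 1 library left out (lowest without LHP tumor 6, LHP tumor 3 and S7HP tumor 11), and 3430, 682 and 120 with only the 2 groups compared. The cause was not tested. Depth per library is not preserved, so values near the lowest, as for Plagl1 and Igf2os in LHP, have unknown counting error.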
